A study of Mus musculus with 4 samples.

Results

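The genes *Adipoq*, *Cfd*, *Lep*, *Plin1*, *Plin4*, *Cidec*, *Fabp4* and *Lpl*, which mark fat cells, were read out in mouse intestine as a measure of the fat that stays attached to a tissue sample. They are 8 of the 20816 genes that could be built from the deposited exon table, and all 8 were found there by symbol. The series holds 4 SOLiD RNA-Seq libraries, 1 for each combination of tissue and protocol, from C57BL/6 mice aged 9-10 weeks. Small intestine (jejunum) and colon (distal colon) were taken as total tissue and frozen in liquid nitrogen, with no further treatment and no genetic change. In the cDNA fragmented libraries, polyadenylated RNA was copied by SMART cDNA synthesis and the cDNA was fragmented, and reads carry no strand. The labels of the other pair name ribosomal RNA depletion and the SOLiD Whole Transcriptome Analysis Kit, in which RNA is fragmented and adaptors are ligated directionally, and 1.55% and 1.56% of their exon reads were antisense. The study describes its directional libraries as made from polyadenylated RNA. It lists many more reads for them than the 36419942 and 37466674 of this pair, and a longer read length than the 35 bases here. How the pair relates to those libraries is not known. The labels do not say how many mice went into a library, and a comparison of the tissues within a protocol has no replicate. The intervals given are 95% intervals of the counting error only. They treat each read as an independent molecule and are too narrow where several reads stem from 1 molecule. Tissue, animal and library cannot be told apart, and in total tissue fewer cells of a type and less RNA per cell cannot be told apart either.

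White adipocytes store triglyceride in a single large lipid droplet and release signals into the blood. *Adipoq* encodes the hormone adiponectin, *Lep* encodes leptin, which signals fat stores to the brain, and *Cfd* encodes complement factor D, also known as adipsin, a serine protease of the alternative complement pathway. *Plin1* and *Plin4* encode perilipins, proteins of the droplet coat, and *Cidec* encodes a protein of the droplet surface that drives droplet fusion. *Fabp4* encodes the fatty acid binding protein of adipocytes, which is also made by macrophages and by the endothelium of small vessels. *Lpl* encodes lipoprotein lipase, which frees fatty acids from circulating lipoproteins and is also made by muscle and macrophages. Mesenteric fat runs along the border where the gut wall is attached.

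Between 36419942 and 83302412 reads were sequenced per library. Uniquely placed reads on exons or exon junctions numbered 22484041 in small intestine and 24798934 in colon with cDNA fragmentation, and 2035386 in small intestine and 3478387 in colon with rRNA depletion. The small intestine cDNA fragmented library stood apart from the others in its sex-linked genes, with 1756 reads of *Xist* against 5 to 31 elsewhere, and no read of *Eif2s3y*, *Kdm5d* or *Uty*, which had 40 to 1209 reads in the other 3 libraries. The libraries also differed in 10 pancreatic acinar genes, which summed to 347 RPKM in small intestine against 1197 in colon with cDNA fragmentation but to 3476 and 313 with rRNA depletion. RPKM are reads per 1000 exon bases and 1000000 uniquely placed reads. The sex-linked difference thus lies within the tissue comparison of the cDNA fragmented libraries, and the acinar difference within both comparisons. Their part in the results was not tested. The study describes its tissues as coming from the same individuals, which the sex-linked reads do not bear out for the cDNA fragmented pair.

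All 8 genes had reads in all 4 libraries, although *Plin1*, a defining gene of white fat cells, had at most 8. Together they took 122 of every 1000000 uniquely placed reads in small intestine (interval 118 to 127, 2749 reads) and 396 in colon (389 to 404, 9831 reads) with cDNA fragmentation. With rRNA depletion they took 87.0 of every 1000000 in small intestine (74.6 to 101, 177 reads) and 272 in colon (255 to 290, 947 reads). The summed reads were thus higher in colon by 3.24 times (3.11 to 3.38) with the first protocol and by 3.13 times (2.66 to 3.70) with the second. Counted by distinct start points of reads, they were higher by 2.12 and 1.95 times. Such a count is bounded by gene length, which bears less on the rRNA depleted libraries, with 177 and 947 member reads. The genes that carried these sums differed between libraries. *Cidec* held 44.5% of the member reads in the small intestine cDNA fragmented library and 11.8% in the colon one, whereas *Cfd* held 8.84% and 27.4%. With rRNA depletion *Cfd* held 11.3% in small intestine and 40.1% in colon, and *Lpl* held 26.0% and 16.2%. Without *Cidec* the ratio of the sums was 5.15 with cDNA fragmentation, and without *Cfd* it was 2.11 with rRNA depletion.

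**Figure D1:**
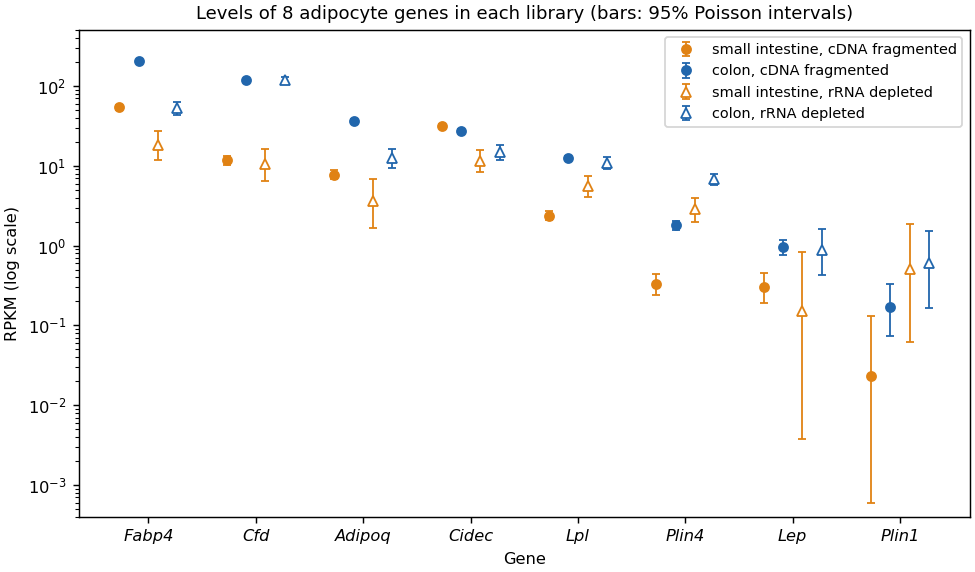
Level of each of the 8 adipocyte genes (RPKM, log scale) in the 4 libraries, with circles for cDNA fragmented, triangles for rRNA depleted, orange for small intestine and blue for colon. Bars are 95% Poisson intervals of the read count, and Fabp4, Cfd, Adipoq, Lpl and Plin4 lie higher in colon in both protocols.

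Among the secreted proteins, *Adipoq* (chr16:23146609-23158041, plus strand, mm9, 1232 exon bases in 3 blocks) had 215 reads in small intestine against 1127 in colon with cDNA fragmentation, and 9 and 53 with rRNA depletion. Its level was 7.76 RPKM in small intestine against 36.9 in colon with the first protocol, and 3.59 and 12.4 with the second. Colon was therefore higher by 4.75 times (4.10 to 5.52) and by 3.45 times (1.69 to 7.95). In the colon cDNA fragmented library 16113 genes were present, that is, above 0.01 RPKM with at least 2 start points, and *Adipoq* ranked at place 2088 among them. No *Adipoq* read in the rRNA depleted libraries lay on the antisense strand.

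Of the 300 bases around the *Adipoq* start site in RefSeq (build GRCm38.p6), the 100 bases just before the start are shown, because this hormone is the gene of the group most confined to fat cells and 3 copies of the CCAAT box (CCAAT on either strand, in capitals) fall within this stretch, chr16:23146436-23146535, plus strand.
Adipoq: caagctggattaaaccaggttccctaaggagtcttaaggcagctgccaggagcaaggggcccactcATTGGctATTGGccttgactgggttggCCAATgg
Of all 32851 RefSeq promoter windows of this length, 37.4% held a CCAAT box. The *Adipoq* window held no TATA box (TATAAA), no AGGTCA and no direct repeat of it as bound by PPAR factors, and no C/EBP-type TTGCNNAA, on either strand.

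*Cfd* (chr10:79353598-79355401, plus strand, 923 exon bases in 5 blocks) had the largest tissue ratio of the 8 in both protocols when reads were counted. It had 243 reads in small intestine against 2692 in colon with cDNA fragmentation, and 20 and 380 with rRNA depletion, which is 11.7 and 118 RPKM and 10.6 and 118 RPKM. The colon was higher by 10.0 times (8.81 to 11.5) and by 11.1 times (7.10 to 18.4). The ratio of the rRNA depleted to the cDNA fragmented level was 1.01 (0.902 to 1.12) in colon, an interval that includes 1, and in small intestine it was 0.909 (0.546 to 1.44). The *Cfd* reads of the rRNA depleted libraries were, however, gathered on few positions. They began at 9 start points in small intestine and 49 in colon, against 209 and 917 with cDNA fragmentation. A single start point in the fourth exon block, within the coding sequence, held 131 of the 380 reads in colon (34.5%) and 8 of the 20 in small intestine, but 8 of 2692 and 3 of 243 with cDNA fragmentation. The 35 bases that follow it are shown for this reason, chr10:79354926-79354960, plus strand, mm9.
Cfd start point: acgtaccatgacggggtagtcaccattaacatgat
With this start point left out everywhere, *Cfd* was higher in colon by 12.1 times with rRNA depletion. Counted by start points in place of reads, it was higher by 4.19 times with cDNA fragmentation and by 3.18 times with rRNA depletion. By this count *Plin1*, *Plin4* and *Lpl* had higher ratios with cDNA fragmentation, at 5.73, 5.36 and 4.64, and *Lep* and *Adipoq* with rRNA depletion, at 5.26 and 3.70. The number of start points is bounded by the length of a gene. With cDNA fragmentation *Cfd* had 917 on its 923 bases in colon, counting both strands, against 247 on the 6001 bases of *Plin4*. In that protocol the order of the genes by this count therefore cannot be set beside that by reads. With rRNA depletion the 9 and 49 start points of *Cfd* lay far below that bound. Its ratio there was 11.1 by reads and 3.18 by start points, with its reads gathered on few positions.

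*Lep* (chr6:29010221-29023876, plus strand, 3257 exon bases in 3 blocks) was low in every library. It had 22 reads in small intestine against 77 in colon with cDNA fragmentation, and 1 and 10 with rRNA depletion, or 0.3004, 0.953, 0.151 and 0.883 RPKM. The tissue ratio was 3.17 (1.95 to 5.35) with the first protocol. With the second it was 5.85, with an interval of 0.832 to 254 that includes 1. All 31-base windows within its longer exon blocks occur once in the exon reference, while its first block, of 28 bases, is shorter than a read and had no reads. Its promoter window held 1 match to TTGCNNAA, a C/EBP-type motif found in 10.8% of all windows, at chr6:29060121-29060220, plus strand, GRCm38.p6, here in capitals.
Lep: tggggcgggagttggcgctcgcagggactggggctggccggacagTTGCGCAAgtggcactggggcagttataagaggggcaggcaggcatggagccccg

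The droplet proteins did not behave alike. *Plin1* (chr7:86866050-86877662, minus strand, 1916 exon bases in 9 blocks), the perilipin that coats the droplets of white adipocytes, was at the edge of detection, with 1 read in small intestine and 8 in colon with cDNA fragmentation and 2 and 4 with rRNA depletion. These are 0.0232, 0.168, 0.513 and 0.600 RPKM. In colon with cDNA fragmentation this was 0.00456 of the *Adipoq* level, and with rRNA depletion 0.0485. The tissue ratios of 7.25 (0.972 to 322) and 1.17 (0.168 to 12.9) both have intervals that include 1, so a tissue difference of *Plin1* was not detectable at this depth. All 1646 windows of 31 bases in its exons were unique.

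*Plin4* (chr17:56239768-56249225, minus strand, 6001 exon bases in 9 blocks) had 45 reads in small intestine against 267 in colon with cDNA fragmentation, and 35 and 141 with rRNA depletion. Its level was 0.334 and 1.79 RPKM with the first protocol and 2.87 and 6.75 with the second. Colon was higher by 5.38 times (3.91 to 7.55) and by 2.36 times (1.62 to 3.52), and these intervals do not overlap. Only 75.5% of its 31-base windows were unique, so its RPKM understate its level, and 252 of its exon bases overlap another gene. In small intestine with rRNA depletion 7 of its 35 reads were antisense, and in colon 6 of 141 (4.26%), while the other members had 1 antisense read in all in these 2 libraries, on *Lpl*.

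*Cidec* (chr6:113374630-113385749, minus strand, 1702 exon bases in 6 blocks) was the exception among the 8. It had 1222 reads in small intestine against 1162 in colon with cDNA fragmentation, and 40 and 88 with rRNA depletion. Its level of 31.9 RPKM in small intestine against 27.5 in colon gave a colon to small intestine ratio of 0.862 (0.795 to 0.935), the only one of the 16 below 1. With rRNA depletion it was 11.5 and 14.9 RPKM, a ratio of 1.29 (0.876 to 1.92) whose interval includes 1. Relative to *Adipoq* in the same library, its level was 4.11 in small intestine and 0.746 in colon with cDNA fragmentation, and 3.22 and 1.202 with rRNA depletion.

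Of the proteins that handle fatty acids, *Fabp4* (chr3:10204343-10208576, minus strand, 641 exon bases in 4 blocks) was the most abundant member per length in 3 libraries. It had 784 reads in small intestine against 3242 in colon with cDNA fragmentation, and 24 and 118 with rRNA depletion. Its level was 54.4 and 204 RPKM with the first protocol, place 539 of the genes present in colon, and 18.4 and 52.9 RPKM with the second. Colon was higher by 3.75 times (3.47 to 4.06) and by 2.88 times (1.84 to 4.67). By start points, the ratio with cDNA fragmentation was 1.45, as the colon library had 667 start points on these 641 bases, counting both strands, and small intestine 440. Its spliced form was also read across exon borders. The junction of the third and the fourth exon blocks was the one with most reads, with 4 in small intestine and 9 in colon with cDNA fragmentation and 4 in each tissue with rRNA depletion. It is shown as the sequence by which spliced *Fabp4* RNA was seen in all 4 libraries, with the fourth block in capitals, joining chr3:10205241-10205268 to chr3:10204543-10204570, minus strand, mm9, both coding.
Fabp4 junction: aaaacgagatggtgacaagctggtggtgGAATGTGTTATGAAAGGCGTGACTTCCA
Over the members, 120 reads lay on junctions, 52 of *Fabp4*, 48 of *Cfd*, 11 of *Cidec* and 9 of *Lpl*. The deposited junction table pairs exons that are not neighbours too, and 61 of these reads lay on neighbouring blocks and 59 across at least 1 skipped block.

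*Lpl* (chr8:71404454-71430831, plus strand, 4049 exon bases in 10 blocks) had 217 reads in small intestine against 1256 in colon with cDNA fragmentation, and 46 and 153 with rRNA depletion. Its level was 2.38 and 12.5 RPKM with the first protocol and 5.58 and 10.9 with the second. Colon was higher by 5.25 times (4.54 to 6.09) and by 1.95 times (1.39 to 2.77), and these intervals do not overlap. Of its 31-base windows 94.1% were unique.

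**Figure D2:**
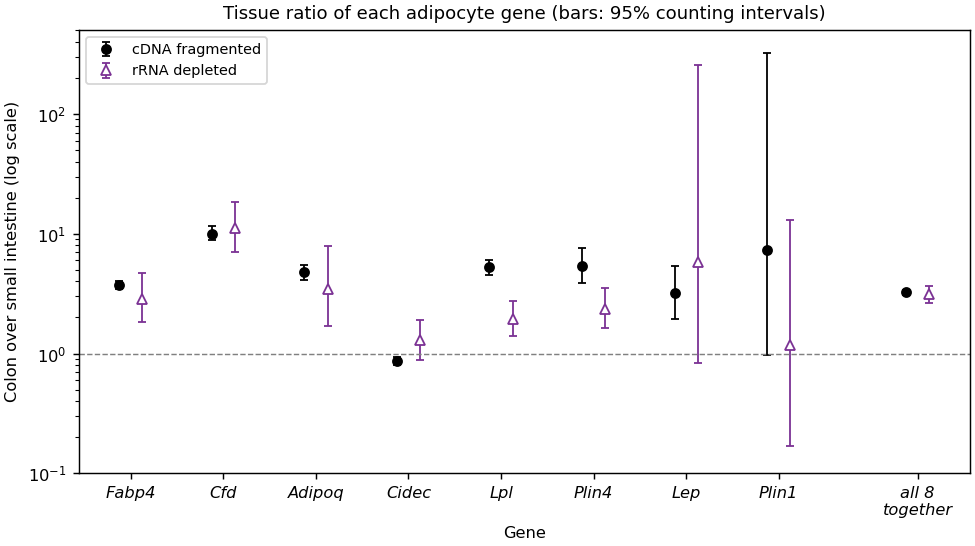
Colon over small intestine ratio of each adipocyte gene and of all 8 together (log scale), in black circles for cDNA fragmented and purple triangles for rRNA depleted, with 95% counting intervals and a dashed line at 1. Cfd has the highest ratio by reads in both protocols, 10.0 (8.81 to 11.5) and 11.1 (7.10 to 18.4). Cidec lies at 0.862 and 1.29, and the bars of Plin1 include 1 in both protocols.

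A gene was counted as apart between tissues when its RPKM in one was at least 3 times the sum of 1 and that in the other. A gene below 3 RPKM in both tissues therefore cannot pass, whatever its ratio. With cDNA fragmentation this shut out *Plin1*, *Plin4* and *Lep*, and with rRNA depletion *Plin1* and *Lep*. By this rule 4 of the 8 members, *Adipoq*, *Fabp4*, *Cfd* and *Lpl*, were higher in colon with cDNA fragmentation and none in small intestine, where 3.22% and 2.72% of the 16479 genes compared passed in these directions. With rRNA depletion *Cfd* alone passed, higher in colon, against 6.61% of 15078 genes in that direction and 3.71% in the other. By the looser measure of a counting interval of the ratio that excludes 1, 6 members were higher in colon and 1, *Cidec*, in small intestine with cDNA fragmentation, where 48.1% and 21.9% of all genes did so. With rRNA depletion 5 were higher in colon and none in small intestine, where 36.2% and 18.2% of genes did so. The log2 ratio of colon over small intestine, with 0.1 RPKM added to each level, had a median of 2.02 over the members and 0.36 over all genes compared with cDNA fragmentation, and 1.36 and 0.42 with rRNA depletion. With median-of-ratios scaling, which moved the median log2 ratio over all genes to 0.03 with cDNA fragmentation and to 0.09 with rRNA depletion, 2 members passed the 3-fold rule in colon with cDNA fragmentation, where 2.13% of all genes did so.

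The tissues were also compared over both protocols, in a limma fit of log2(RPKM + 0.1) with tissue as the effect and the protocol as a block, over 14693 genes with at least 20 reads. This fit was chosen after the values were seen. It has 1 residual degree of freedom, so that its estimate of the spread is borrowed mostly from the other genes, and the protocols stand as the only repeats. Its SE and p-values therefore cannot separate the spread between mice from that between protocols. By an adjusted p (Benjamini-Hochberg over all genes fitted) under 0.05, 4 members were higher in colon and none in small intestine. Of the 14693 genes, 1345 (9.15%) were called higher in colon and 631 in small intestine. By an unadjusted p under 0.05 in limma these were 6 and none of the 7 members fitted, where 19.8% and 7.02% of genes passed in these directions. *Cfd* was higher by 3.39 on the log2 scale (SE 0.38, adjusted p = 1.11e-05), *Adipoq* by 1.996 (SE 0.43, adjusted p = 0.0055), *Fabp4* by 1.71 (SE 0.37, adjusted p = 0.00567) and *Lpl* by 1.65 (SE 0.499, adjusted p = 0.0391). *Plin4*, *Lep* and *Cidec* had log2 differences of 1.67, 1.68 and 0.07, which did not pass, and *Plin1*, with 15 reads in all, was not fitted. *Lpl* no longer passed with 1 RPKM added or with the levels centred on the median of all genes (adjusted p = 0.0571 and 0.0968), and the other 3 did. This centring also moved the split of all genes called from 1345 in colon and 631 in small intestine to 868 and 848.

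With cDNA fragmentation the order of the 8 levels ran in small intestine from *Fabp4* over *Cidec*, *Cfd*, *Adipoq*, *Lpl*, *Plin4* and *Lep* to *Plin1*, and the intervals of neighbours overlapped only between *Plin4* and *Lep*. In colon *Cfd* and *Adipoq* stood above *Cidec*, and no neighbours overlapped. With rRNA depletion the levels in small intestine, from *Fabp4* at 18.4 RPKM down to *Plin4* at 2.87, overlapped with their neighbours at each step. In colon *Cfd* at 118 RPKM stood above *Fabp4* at 52.9, followed by *Cidec*, *Adipoq* and *Lpl* between 14.9 and 10.9 RPKM, whose intervals overlapped in turn.

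The protocols differed in which members they favoured. In colon the ratio of the rRNA depleted to the cDNA fragmented level was 0.259 (0.214 to 0.312) for *Fabp4*, 0.335 (0.2496 to 0.442) for *Adipoq* and 0.540 (0.430 to 0.671) for *Cidec*. It was 0.868 (0.729 to 1.03) for *Lpl* and 3.77 (3.05 to 4.63) for *Plin4*, the longest member. In small intestine it was 0.338 for *Fabp4*, 0.462 for *Adipoq*, 0.362 for *Cidec*, 2.34 for *Lpl* and 8.59 for *Plin4*. Over all genes with at least 20 reads, the median log2 of this ratio in colon was -1.63 for genes of up to 1000 exon bases, 0.01 for those of over 1000 to 3000 and 1.15 for longer ones. In small intestine these medians were -1.71, -0.23 and 1.03. *Fabp4* and *Plin4* lay beyond the median of their length class in colon, at -1.94 and 1.86, as did *Plin4* in small intestine at 2.77, and *Adipoq* and *Cidec* lay below that of theirs in both tissues. *Cfd*, at 923 bases, lay above its class with 0.01 in colon and -0.14 in small intestine. *Lpl* and *Lep*, at over 3000 bases, lay below it in colon with -0.20 and -0.10, and in small intestine *Lpl* was at 1.19 and *Lep* at -0.67.

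Reads were also spread differently along the genes. In the colon, 86.9% of the *Plin4* reads lay beyond the midpoint of its joined exons, towards the 3′ end, with cDNA fragmentation and 65.2% with rRNA depletion. *Lpl* showed the opposite, with 17.9% beyond the midpoint with cDNA fragmentation and 48.7% with rRNA depletion. Its last exon block, which holds 59.9% of the exon bases, took 30.6% and 56.6% of the reads. *Adipoq*, *Fabp4* and *Cidec* had between 49.6% and 63.2% of their colon reads beyond the midpoint in either protocol. *Cfd* had 70.8% and 71.1%, and its first block, 13.9% of its bases, took 1.205% and 0.267% of its reads. All 3 exon blocks of *Adipoq*, all 4 of *Fabp4* and all 5 of *Cfd* were read in colon in both protocols.

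**Figure D3:**
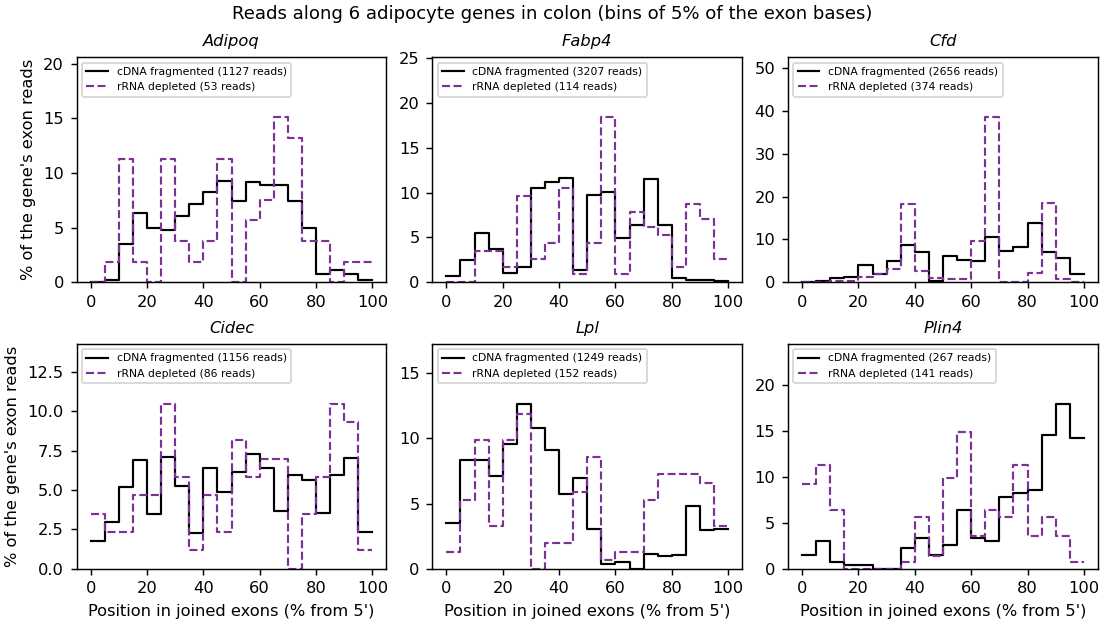
Share of exon reads in 20 bins of 5% along the joined exons of 6 adipocyte genes in colon, from 5′ to 3′, with solid black lines for cDNA fragmented and dashed purple lines for rRNA depleted. The rRNA depleted line of Cfd has 3 peaks, with 144, 69 and 68 of 374 reads in their bins, and the tallest holds the start point with 131 reads, and the Plin4 reads gather at the 3′ end with cDNA fragmentation (86.9% beyond the midpoint).

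Of the 42 further genes of adipocytes, in 5 lists, 4 passed the 3-fold rule in colon and 7 in small intestine with cDNA fragmentation, where 3.22% and 2.72% of all genes did. This split became 10 and 7 with a penalty of 0.1 RPKM, where 8.18% and 4.25% of all genes passed, and 12 and 4 when reads on epithelial genes were the denominator, where 14.8% and 1.41% did. With rRNA depletion 9 and 5 passed, against 6.61% and 3.71% of all genes. Per read on epithelial genes this became 7 and 6, where 4.05% and 5.23% of all genes passed. With the keratin *Krt20* left out of the epithelial reads it became 5 and 7, where 3.36% and 6.45% did. Under that last setting the split with cDNA fragmentation was 4 and 7, where 3.1% and 2.8% did. The median log2 ratios of the 42 genes by uniquely placed reads were 0.72 and 0.92, beside 0.36 and 0.42 over all genes compared. The summed level of the lists was higher in small intestine, 1377 against 707 RPKM with cDNA fragmentation and 1410 against 1209 with rRNA depletion. The fat synthesis list held most of it, 1215 RPKM in small intestine with cDNA fragmentation. Several of its enzymes also serve enterocytes, which rebuild triglyceride from dietary fat. *Mogat2*, a monoacylglycerol acyltransferase, had 556 RPKM in small intestine against 9.58 in colon with cDNA fragmentation, and 314 and 6.17 with rRNA depletion. With rRNA depletion its gap between the tissues was wider than that of the summed lists, so the direction of that sum rests on *Mogat2*. *Dgat1* and *Dgat2*, which catalyse the last step of triglyceride synthesis, had 118 and 84.6 RPKM in small intestine with cDNA fragmentation against 17.2 and 24.3 in colon. *Gpd1*, glycerol-3-phosphate dehydrogenase, had 163 and 20.6. The fat synthesis list of 15 genes counted 1 colon and 4 small intestine passes with cDNA fragmentation, median log2 -0.02, and 3 and 4 with rRNA depletion, median 0.22. Also in this list, *Scd1*, a fatty acid desaturase, was at 24.8 and 17.8 RPKM with cDNA fragmentation and 74.4 and 149 with rRNA depletion, and *Acly*, ATP citrate lyase, was at 26.8 and 67.9 and at 21.7 and 144. *Scd2*, a related desaturase, had 16.1 and 66.8 RPKM with cDNA fragmentation.

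The transcription factors of the adipocyte were headed by *Pparg*, the nuclear receptor that drives adipocyte differentiation and is also made by colon epithelium. It had 145 reads in small intestine against 3179 in colon with cDNA fragmentation, and 21 and 314 with rRNA depletion, or 3.25, 64.6, 5.20 and 45.5 RPKM. It was the only 1 of its 5-gene list to pass the 3-fold rule, in colon in both protocols. *Cebpa*, a second factor of adipocyte differentiation, had 2.38 and 4.25 RPKM with cDNA fragmentation and 21.03 and 23.1 with rRNA depletion. The median log2 ratio of this list was 0.81 and 0.13, beside 0.36 and 0.42 over all genes compared, with 3 of the 5 above 0 in each protocol. *Cebpb* and *Klf15* went the other way in both, with colon to small intestine ratios of 0.440 and 0.293 and of 0.574 and 0.773. Of these ratios only that of *Cebpb* with cDNA fragmentation had an interval that excludes 1 (0.231 to 0.807).

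Of the 6 genes of fat breakdown and its signals 1 passed in colon in each protocol and none in small intestine, with medians of 0.56 and 0.88. This was *Mgll*, monoacylglycerol lipase, with 2.10 and 12.5 RPKM with cDNA fragmentation and 4.67 and 34.5 with rRNA depletion. *Lipe*, the hormone-sensitive lipase of adipocytes, went the other way without passing, with 3.01 against 1.25 RPKM and 14.6 against 4.47. Of the 8 genes of uptake and transport none passed in colon and 2 in small intestine with cDNA fragmentation, and 2 and 1 with rRNA depletion, with medians of 0.39 and 1.12. *Aqp7*, a glycerol channel of adipocytes, went against the members, with 6.71 RPKM in small intestine against 0.320 in colon with cDNA fragmentation and 10.1 and 0.683 with rRNA depletion. *Cav1*, caveolin-1 of the plasma membrane, had 24.0 and 39.4 and then 8.49 and 99.99 RPKM. Of the 8 secreted proteins 1 passed in colon and 1 in small intestine with cDNA fragmentation, and 2 and none with rRNA depletion, with medians of 1.37 and 1.94. The 1 in small intestine was *Angptl4*, a secreted inhibitor of lipoprotein lipase, at 11.6 against 2.01 RPKM, and at 6.20 against 3.33 with rRNA depletion. *Sncg*, gamma-synuclein, which neurons make too, had 158 and 884 reads with cDNA fragmentation and 0 and 3 with rRNA depletion. *Rbp4*, retinol binding protein, had 4.32 and 15.1 RPKM with cDNA fragmentation and 1 and 50 reads with rRNA depletion.

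The relatives of the members had their own tissue patterns. *Fabp1* and *Fabp2*, the fatty acid binding proteins of enterocytes, had 13459 and 38180 RPKM in small intestine with cDNA fragmentation against 4.75 and 4468 in colon, so that *Fabp4* was a small part of its family there. Of the 7 relatives of *Fabp4* none passed in colon and 3 in small intestine in each protocol, with median log2 ratios of -1.56 over 6 present genes and -3.01 over 5. *Plin2*, a perilipin found in most cells, had 69.8 and 199 RPKM with cDNA fragmentation and 34.9 and 105 with rRNA depletion, and *Plin3* had 68.0 and 14.9 and then 84.4 and 15.6. The 3 other perilipins counted 1 pass in small intestine in each protocol and none in colon, with medians of 0.56 and -1.48. *Cideb*, the CIDE protein of liver and enterocytes, had 258 and 87.1 RPKM with cDNA fragmentation and 59.7 and 25.0 with rRNA depletion. *Cidea*, the CIDE protein of brown fat, had 21 and 22 reads and then 0 and 1, and neither of the 2 relatives of *Cidec* passed in either direction. Of the 3 lipases related to *Lpl*, *Lipg*, endothelial lipase, had 0.587 and 3.11 RPKM with cDNA fragmentation and 4.15 and 15.7 with rRNA depletion. *Pnlip*, pancreatic lipase, had no read in small intestine and 2248 in colon with cDNA fragmentation but 1119 and 3 with rRNA depletion, as the acinar genes did.

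Other cell types of the gut wall were compared in the same way, to set the members beside what else moved between the libraries. Smooth muscle was higher in colon too. Its 7 genes summed to 362 and 1326 RPKM with cDNA fragmentation and to 295 and 2545 with rRNA depletion, 3.66 and 8.62 times higher in colon, and 5 of 7 passed the 3-fold rule in colon in each protocol. Its leading genes were *Actg2*, enteric smooth muscle actin, with 80.6, 341, 45.2 and 674 RPKM, and *Tagln*, transgelin, with 86.4, 446, 50.2 and 652, in the order small intestine and colon with cDNA fragmentation, then with rRNA depletion. The summed RPKM of the 8 adipocyte genes was 3.69 and 4.08 times higher in colon, so both sums moved the same way, and whether they differ was not tested.

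The 6 genes of fat stroma and fibroblasts summed to 276 and 377 RPKM with cDNA fragmentation and to 56.6 and 253 with rRNA depletion, with none passing and then 2 in colon. *Dcn*, decorin, had 187 and 207 and then 22.3 and 144 RPKM, and *Dpt*, dermatopontin, had 70.9 and 146 and then 5.41 and 58.3. *Dlk1*, a marker of preadipocytes, had no read in either small intestine library and 4 and 8 in colon. The 6 mesothelium genes, which mark the outer lining of gut and mesentery, summed to 13.7 RPKM in both tissues with cDNA fragmentation. With rRNA depletion the sums were 8.48 and 12.3. *Upk1b* alone made most of the sums with cDNA fragmentation. The median log2 ratio of the list was 0.50 and 0.69, with 4 and then 5 of the 6 genes above 0. None passed, but only *Upk1b* and *Msln* with cDNA fragmentation and *Upk1b* and *Gpm6a* with rRNA depletion reached the 3 RPKM that a pass needs. *Upk1b*, a uroplakin, had 10.8 and 7.96 and then 2.22 and 3.74 RPKM, and *Msln*, mesothelin, had 0.988 and 3.47 and then 1.16 and 2.17. The 6 endothelial genes summed to 21.9 and 27.2 and to 17.9 and 32.3, led by *Pecam1* at 11.5 and 13.1 and *Esam* at 6.89 and 10.3 with cDNA fragmentation, and none passed. The 3 genes of lymphatic endothelium summed to 10.8 and 13.7 and to 7.17 and 24.8, with 1 pass in colon with rRNA depletion, and were led by *Lyve1*, a hyaluronan receptor, at 9.502 and 12.6 and *Flt4*, a growth factor receptor, at 1.07 and 0.967 with cDNA fragmentation. The 5 macrophage genes summed to 44.6 and 81.3 and to 17.8 and 39.96, with 1 pass in colon in each protocol, led by *Cd14* at 15.5 and 58.2 and *Cd68* at 14.6 and 16.3 with cDNA fragmentation, while *Marco* was at 0 in all 4 libraries. *Emr1* and *Csf1r*, macrophage receptors, were lower in colon with cDNA fragmentation, at 10.2 against 4.16 and 4.33 against 2.70 RPKM, *Csf1r* also with rRNA depletion, at 10.4 against 5.56, where *Emr1* was higher in colon, at 3.18 against 10.9. The median log2 ratio of the macrophage list was -0.25 with cDNA fragmentation and 1.53 with rRNA depletion, and *Cd14* was the gene that passed in both. These cell types make some of the 8 members as well, and their part in the tissue ratios was not tested.

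The defining gene of brown fat was not detected. *Ucp1*, the uncoupling protein that defines brown adipocytes, had no read in any library, which allows up to 3 reads. The 7 brown fat genes summed to 499 and 603 RPKM with cDNA fragmentation and to 75.2 and 47.9 with rRNA depletion. Most of this came from *Cox7a1*, a cytochrome c oxidase subunit of muscle and brown fat, at 484 and 590 and at 55.0 and 34.6. None passed, and *Ucp1*, *Cidea*, *Elovl3* and *Dio2* could not, being below 3 RPKM in every library. *Ppargc1a*, a coactivator of mitochondrial genes, had 13.1 and 7.10 and then 20.2 and 10.6 RPKM. Of the 10 acinar genes 8 passed in colon with cDNA fragmentation and 8 in small intestine with rRNA depletion, with *Cela2a*, an elastase, at 0, 5561, 1317 and 8 reads and *Ctrb1*, chymotrypsinogen, at 3, 1796, 1611 and 5. *Clps*, colipase, was higher in small intestine in both protocols, with 328 against 149 RPKM and 114 against 10.5, and so made up 328 of the 347 RPKM of these genes in small intestine with cDNA fragmentation. *Cela1*, another elastase, passed in colon with cDNA fragmentation but not with rRNA depletion, where it had 503 and 293 RPKM, and *Amy2a5* was at 0 in all 4 libraries. The 8 adipocyte genes together were higher in colon in both protocols, and whether the acinar difference bears on them was not tested. The 7 epithelial genes summed to 9580 and 4897 RPKM and to 4285 and 6516, with 1 pass in colon and 2 in small intestine in each protocol. Of these *Krt20*, a keratin of differentiated enterocytes, had 7588 and 2523 and then 657 and 117 RPKM, and *Krt19*, a keratin of all gut epithelium, had 273 and 900 and then 847 and 2766. Taken per read on these epithelial genes, the members together were higher in colon by 6.68 times with cDNA fragmentation and by 2.40 times with rRNA depletion. *Krt20* held 78.1% of these epithelial reads in small intestine against 53.5% in colon with cDNA fragmentation, and without it the members together were higher by 3.14 and 2.08 times.

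**Figure D4:**
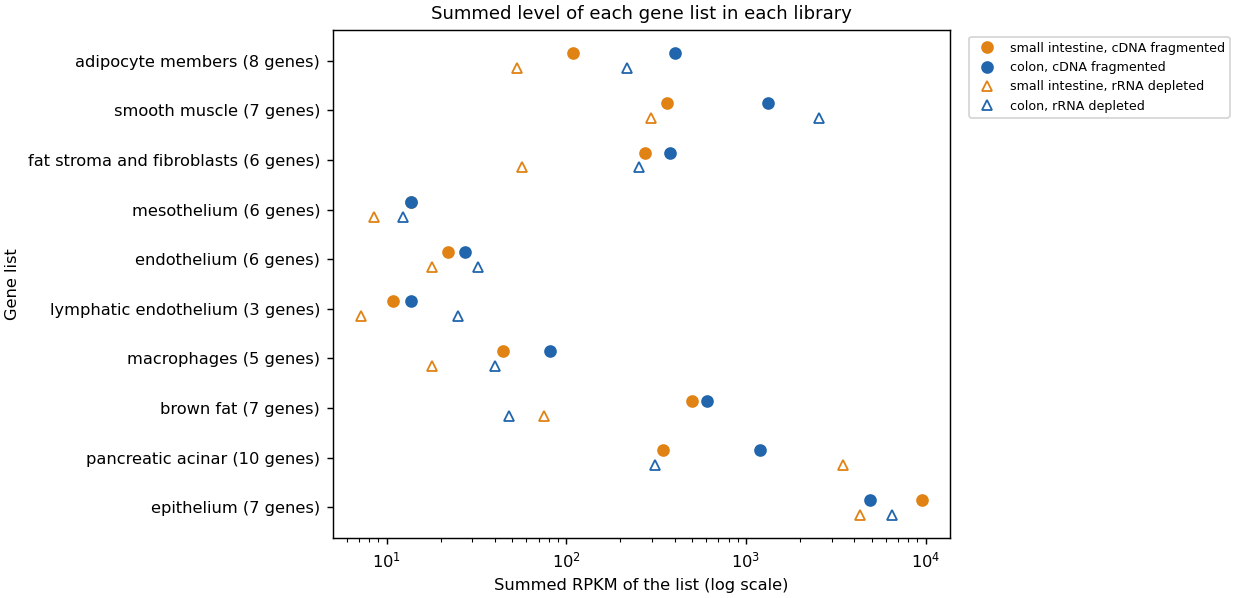
Summed level (RPKM, log scale) of the 8 adipocyte genes and of 9 lists of cell type genes in each library, with circles for cDNA fragmented, triangles for rRNA depleted, orange for small intestine and blue for colon. The adipocyte and smooth muscle genes are higher in colon in both protocols (3.69 and 4.08 times, and 3.66 and 8.62 times). So are the sums for fat stroma and fibroblasts (1.37 and 4.48 times), endothelium (1.24 and 1.80), lymphatic endothelium (1.27 and 3.46) and macrophages (1.82 and 2.24). With cDNA fragmentation the median log2 ratios of the last 3 lists were 0.37, -0.13 and -0.25, beside 0.36 over all genes compared. The sums of the acinar, brown fat and epithelial genes change sides between protocols.

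Likeness of pattern was taken as the root mean square difference of log2 levels over the 4 libraries, each gene centred on its own mean, among 14686 genes with at least 20 reads. The 8 genes most like the mean profile of the members were *Rad52*, *2310044G17Rik*, *Mmab*, *Yipf2*, *Hist1h1c*, *Ugdh*, *Mthfsd* and *Ttc38*, at 0.07 to 0.10, and none of them is in the adipocyte lists. The 3 most like *Adipoq* alone were *Prss32*, *Gstm2* and *Tpm2*, at 0.07 to 0.12. The members themselves lay farther apart. *Lep* and *Lpl* were nearest to the mean of the other 7 members, at 0.35 and 0.41, with 2.02% and 4.16% of genes closer, and *Plin4* was farthest, at 1.34, with 67.9% of genes closer. This likeness over 4 libraries is a description, and only 2 of the first 8 genes stayed in the list when 1 RPKM was added in place of 0.1.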

How the data were processed

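The deposited files hold, per the labels and file headers, the color-space matches of 35-base SOLiD reads to a reference of RefSeq exons and exon junctions (28 bases on each side, mm9), with up to 3 mismatches, 1 file per library. The study names BioScope for its matching to the genome, while paths in the headers name a corona folder, and the tool used for these files is not given in the sources used here. Reads with 1 match were counted on exon blocks with a tolerance of 3 bases at block borders and on junctions, and blocks joined by junctions were made into genes named from GENCODE M1 (20645 of 20816). RPKM use the library's uniquely placed reads and cannot be corrected for sequence that is not unique. Ratios carry exact conditional binomial (Clopper-Pearson) intervals and levels exact Poisson intervals at 95%, which cover counting error only. They treat each read as independent. Reads without molecular identifiers are not independent molecules, so the intervals are too narrow even for that error. A count of 0 allows up to 3 reads. The added fit over both protocols used limma 3.58.1 (R 4.3.3) with a mean-variance trend. Scripts used Python 3.11.15, numpy, pandas and scipy and were tested on simulated data.

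The members and gene lists were chosen with earlier results of these data known. Named are the 8 members in full, of the wider lists the 6 genes with the highest RPKM and per protocol the 4 with the largest ratio in each direction, with Pparg and Cebpa, of the other lists the 2 highest genes, and the genes most alike in pattern. Further genes (Marco, Emr1, Csf1r, Clps, Cela1, Amy2a5, Lipe, Angptl4, Ucp1, Dlk1, Cebpb, Klf15 and the sex-linked genes) were named after their values were seen. Alternatives were fewer mismatches, start points, other scalings, strand, junction and border rules, unshared bases, single members left out, and other thresholds. Promoters of Fabp4 and Lpl are not analysed here.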

Additional observations from a re-analysis of the deposited data

Results flagged for a closer look

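*Cidec* had point ratios on different sides of 1 in the protocols. Its colon to small intestine ratio was 0.862 with cDNA fragmentation and 1.29 with rRNA depletion, from 1 library each. The difference between these ratios was not tested, and the second interval includes 1. Per read on epithelial genes other than *Krt20*, both *Cidec* ratios were below 1, at 0.835 and 0.855. No other member had ratios on both sides of 1 by uniquely placed reads. *Plin1* did with median-of-ratios scaling, at 5.49 and 0.923, and per epithelial read, at 14.9 and 0.896 with *Krt20* and 7.02 and 0.777 without it.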

How the results depend on the processing

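With the protocol as a block, limma called 4 members, and 3 with 1 RPKM added or with levels centred on the median of all genes. Of all 14693 genes fitted, 1345 were called higher in colon in the first fit, and 1080 and 868 in the others. The pooled ratio of 3.24 (cDNA fragmentation) was 2.12 by start points, 2.45 with median-of-ratios scaling, 6.68 per epithelial read, 2.80 on the sense strand (these reads carry no strand, so this keeps reads of 1 orientation only), and 3.04, 2.58, 5.15 and 3.07 without *Fabp4*, *Cfd*, *Cidec* and *Lpl*. That of 3.13 (rRNA depletion) was 1.95, 2.47 and 2.40 under the first 3 of these and 2.11 without *Cfd*. The median log2 ratio of 2.02 was 1.75, 1.64, 2.98 and 1.87 under the first 4, and 1.48 with 1 RPKM added. Of members 3-fold apart with cDNA fragmentation, 4 became 2 with median-of-ratios scaling, where 2.13% of all genes passed in colon. With rRNA depletion 1 became 3 with a penalty of 0.1 RPKM, where 16.2% of all genes passed in colon in place of 6.61%. It became 2 without junction reads or with unshared bases and 3 at 2-fold, for which the share of all genes is not given here. The 11 wider genes became 17 with the lower penalty. Of 8 genes of like pattern 2 stayed with 1 RPKM added. *Cidec* with cDNA fragmentation reversed to 1.78 per epithelial read, but not without *Krt20* (0.835). Of the single-member ratios, 139 stayed within their interval, 19 moved beyond it and 1 reversed. Among the first 2 kinds, 5 whose interval included 1 crossed 1. Causes were not tested. Chosen after seeing the data, leaving out the *Cfd* start point moved no count and gave pooled ratios of 3.24 and 2.83, and leaving *Krt20* out of the epithelial reads gave 3.14 and 2.08, with a median log2 ratio of 0.78 with rRNA depletion (1.36 by all reads). Depth limits *Plin1* and *Lep*, with 1 to 10 reads in some libraries.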
